A study of Homo sapiens with 6 samples.

Results

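The mitosis genes are 48 genes chosen by symbol for their part in cell division. They include cyclins and kinases of mitotic entry, spindle, kinetochore and checkpoint genes, kinesins and cytokinesis genes. They also include MKI67 and TOP2A, commonly read as marks of dividing cells, and the transcription factor FOXM1. All 48 were found among the 19727 genes of the table. They were studied in DU145, an established prostate cancer cell line. Cells carrying a lentivirus that overexpresses the circular RNA circCSPP1 (lentivirus-circCSPP1, genotype given as overexpression, 3 libraries) were compared with cells carrying the control virus (lentivirus-NC, genotype given as normal, 3 libraries). Both are stable lines made from the same parent and selected with puromycin. Nothing says that the libraries of a group came from separately made lines or cultures, so the p-values below measure the spread between these libraries, which may be technical. Each library gave 1 FPKM value per gene (fragments per kilobase of transcript, scaled to the size of the library), a measure per length that can be compared between genes.

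Entry into mitosis is driven by CDK1 bound to cyclin A or B, which is switched on by CDC25 phosphatases and helped by the kinases PLK1 and AURKA. Kinetochores then tie chromosomes to spindle microtubules, the spindle assembly checkpoint holds anaphase back until all are attached, and the anaphase-promoting complex ends mitosis by marking cyclin B and securin for destruction. Most of these genes are transcribed late in the cell cycle, through a promoter element called the cell cycle genes homology region (CHR), which recruits the MuvB complex, a repressor in resting cells and an activator, with B-MYB and FOXM1, in dividing ones. In a culture their RNA therefore follows the share of cells near division as well as the RNA per cell, and these libraries of whole cultures cannot tell fewer mitotic cells from less RNA in each.

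The CHR is shown first because it is what most of these genes share in sequence and played no part in how they were chosen. RefSeq start sites (GRCh38.p14; 250 bases before the start to 50 after it) were at hand for 41 of the 48 genes, and both strands were searched. The CHR core TTTGAA was in 29 of the 41 windows (70.7%), against 9.03% of 9725 windows of tested genes. Its variant TTTAAA was in 14 (34.1%, against 7.15%), and at least one of the pair in 34 (82.9%, against 14.8%). The element began within 70 bases before the start in 25 of the 41 (61%), against 3.31% of the tested genes. CCAAT boxes were in 33 (80.5%, against 36.4%). Of the E2F-type letters searched, TTCGCGC was in 3 (7.32%, against 4.14%). The form TTGGCGC was likewise in 3 (7.32%, against 5.25%). The form TTCCCGC was in 5 (12.2%, against 10.6%). A match says that the letters are there, not that they are used. The 8 windows that follow belong to genes on which the results turn or that stand for a class, 30 bases each, 5′ to 3′ on the gene's strand, with the CHR that begins nearest the start in capitals; in ANLN the letters just before it hold a second match, on the other strand.
CCNB1: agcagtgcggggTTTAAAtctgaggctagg
PLK1: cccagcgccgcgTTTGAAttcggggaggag
CDC20: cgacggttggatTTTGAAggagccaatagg
KIF20A: cgcagcgcgtaaTTTAAAatattgtatctg
KIF23: ctgattggcccgTTTGAAatgcgccaggcg
ANLN: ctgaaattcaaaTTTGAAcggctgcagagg
PRC1: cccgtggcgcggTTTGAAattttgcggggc
MKI67: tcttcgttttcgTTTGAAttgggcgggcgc
They lie at chr5:69167108-69167137, chr16:23678848-23678877, chr1:43358904-43358933, chr5:138179059-138179088, chr15:69414282-69414311 and chr7:36389830-36389859 on the plus strand, and at chr15:90994538-90994567 and chr10:128126435-128126464 on the minus strand. The capitals begin between 20 bases (ANLN, PRC1) and 65 bases (CDC20) before the start.

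Libraries held 29000000 to 36600000 fragments, read from the steps between low FPKM values, with overlapping groups. The lowest value of any mitosis gene rested on about 272 fragments and the highest on 53505; counting error was not separated from the spread between libraries. CSPP1, the host gene of the circular RNA, was at 9.11, 10.08 and 9.44 FPKM in the lentivirus-NC libraries and at 14.47, 22.76 and 21.36 in the lentivirus-circCSPP1 libraries. The libraries were of polyadenylated RNA, and an FPKM per gene does not separate circular from linear RNA. By qRT-PCR, the paper reports that its vectors changed circCSPP1 but not CSPP1 mRNA. Which RNA gave the higher values here was not tested. The epithelial markers of these cells differed between the groups: KRT8 was at 1085.19 to 1137.92 FPKM in lentivirus-NC and 379.88 to 456.19 in lentivirus-circCSPP1, and CDH1, the gene of E-cadherin, at 9.81 to 11.49 against 2.44 to 3.41. All 5 epithelial markers (KRT8, KRT18, KRT19, EPCAM and CDH1) were lower in every lentivirus-circCSPP1 library, with sums of 1046.42 to 1278.37 FPKM against 2270.99 to 2360.78; their part in the results on the mitosis genes was not tested. KLK3, the gene of prostate-specific antigen, was listed at 0 in all 6 libraries. Of 4 leukocyte and 5 endothelial and fibroblast markers, PTPRC was at most 0.08 FPKM, CD3E was listed at 0 and PECAM1 was at most 0.16; the sums were 43.95 to 49.78 against 35.93 to 50.44 FPKM, nearly all of it CD68, and 3.04 to 4.5 against 1.43 to 2.10 FPKM, mostly COL1A1, the gene of these lists with groups that do not overlap.

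Replicate 1 of lentivirus-circCSPP1 stood apart from the other libraries, and the results on the mitosis genes are given with and without it. It held the lowest of the 6 values in 36 of the 48 genes and the highest in 5. On the log2(FPKM + 1) scale the median mitosis gene lay 0.54 under the lentivirus-NC mean in that library (−0.54), against −0.053 in replicate 2 and −0.20 in replicate 3, and over all genes tested the medians were −0.082, 0.022 and −0.0063. Of the 48, 43 were below the lentivirus-NC mean in replicate 1, 33 in replicate 2 and 40 in replicate 3. The 48 genes together held 2960, 3090 and 3080 FPKM in the lentivirus-NC libraries, against summed values of 2280, 2850 and 2650 FPKM in replicates 1, 2 and 3 of lentivirus-circCSPP1. All 3 sums were thus lower than any control sum, with replicate 2 nearest to the controls. The median coefficient of variation of a mitosis gene was 3.97% among the lentivirus-NC libraries and 18.7% among the lentivirus-circCSPP1 libraries.

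**Figure D1:**
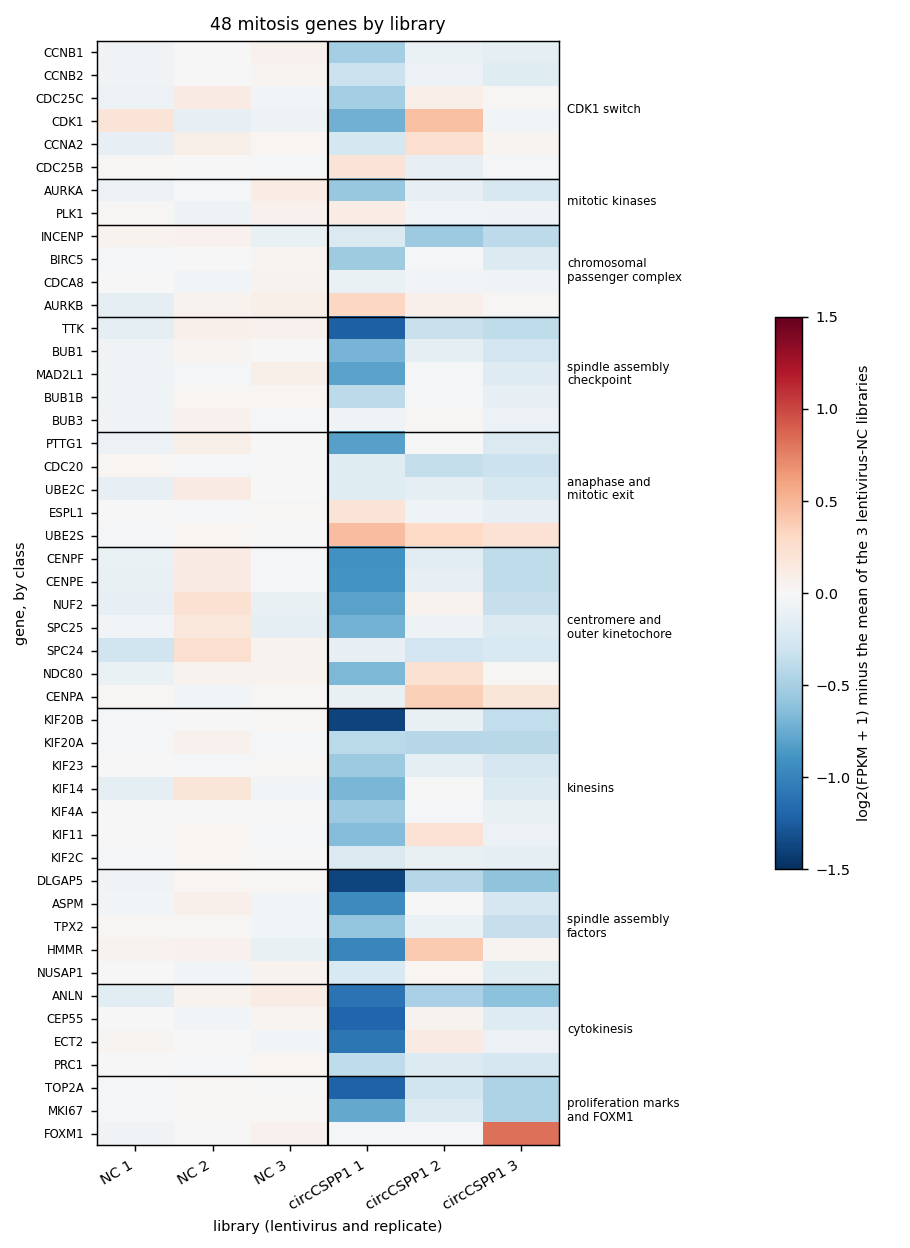
Each row is 1 of the 48 mitosis genes, by class, and each column 1 library; the colour gives log2(FPKM + 1) minus the mean of the 3 lentivirus-NC libraries for that gene. The column of lentivirus-circCSPP1 replicate 1 is the darkest blue (median −0.54), and replicates 2 and 3 are paler (medians −0.053 and −0.20). Genes that go the other way include UBE2S and AURKB in all 3, CENPA in replicates 2 and 3, CDK1 and HMMR in replicate 2, and FOXM1 in replicate 3.

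The distance of replicate 1 moved with the base composition of the transcripts. The longest coding transcripts of the mitosis genes had a median GC content of 43.2% (34.2% to 59.6%), against 49.3% over the genes tested. Across the 48 genes, the difference between replicate 1 and the mean of replicates 2 and 3 had a Pearson r of 0.835 and a Spearman rho of 0.843 with GC content, and across all 12305 tested genes with an annotated transcript r was 0.728 and rho 0.785; all points come from the same 3 libraries. The 26 mitosis genes under 45% GC had medians of −0.77, −0.019 and −0.20 against the lentivirus-NC mean in replicates 1, 2 and 3, and the 22 at 45% or more had −0.20, −0.080 and −0.17. Even so, 24 of the 48 lay under the lower quartile of all genes of like GC content, 21 within the quartiles and 3 above. The difference between replicate 1 and the mean of the other two ran from −1.19 for HMMR, which encodes a spindle-binding hyaluronan receptor, to 0.28, with a median of −0.42; among all genes in the GC bin of HMMR the median was −0.51. A correction of every library for GC content and length by loess left medians of −0.31, −0.13 and −0.21, with 39, 34 and 42 of the 48 below the lentivirus-NC mean.

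**Figure D2:**
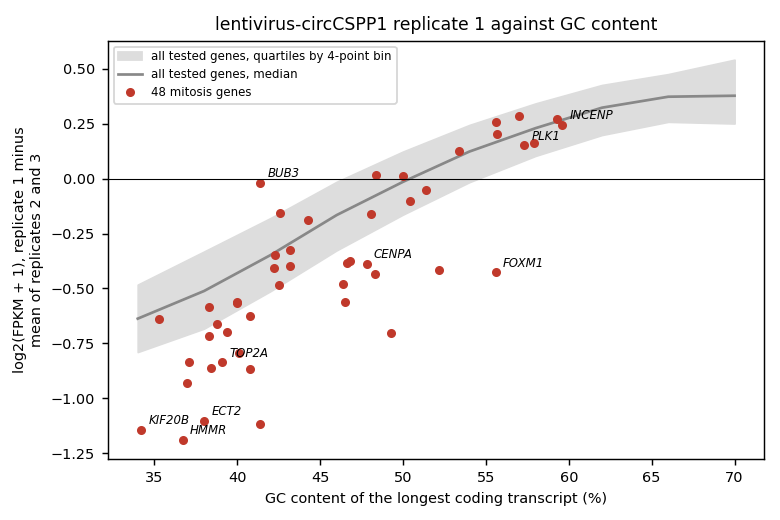
Points are the 48 mitosis genes, with GC content of the longest coding transcript on the x axis (%) and the difference between lentivirus-circCSPP1 replicate 1 and the mean of replicates 2 and 3 on the log2(FPKM + 1) scale on the y axis; the line and band are the median and quartiles of all tested genes in bins of GC content. Genes poor in GC are lowest in replicate 1, as all genes are, but 24 of the 48 fall below the band, HMMR lowest at −1.19.

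Across all 6 libraries, 3 of the 48 genes passed limma's test at an adjusted p under 0.05. KIF20A and ANLN fell and UBE2S rose. That is 6.2% of the 48, under the 11.4% of all 12322 genes tested that passed (4.69% higher, 6.66% lower), and 16 had an unadjusted p under 0.05. Counts at an unadjusted p, here and below, stand without the share of all genes. They cannot be read as many or few. The log2 fold changes were below 0 in 40 of the 48 and above 0 in 8, with a median of −0.26, against −0.03 over all genes. The libraries of the groups did not overlap in 23 genes, of which 22 were lower and 1 higher in lentivirus-circCSPP1; over all genes tested 36.4% did not overlap (20.5% lower, 16% higher). Each of those 23 has an exact two-sided permutation p of 0.1, the smallest that 3 against 3 libraries allow.

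Without replicate 1 of lentivirus-circCSPP1, 11 genes passed. CENPA joined UBE2S among the rises, and INCENP, TTK, CDC20, KIF20A, DLGAP5, PRC1, ANLN, MKI67 and TOP2A fell. The share was then 22.9%, against 28.5% of all genes (18.8% lower, against 15.3%), the groups did not overlap in 26 genes (2 higher, 24 lower), against 58.6% of all genes (29.4% higher, 29.2% lower), and the median shrank to −0.11, against 0.0097 for all genes, with 37 below 0 and 11 above. After the loess correction 19 genes passed (39.6%, against 28.5% of all genes), with UBE2S up and 18 down (37.5%, against 13.8%), and a median of −0.23 against 0.013. With both changes the calls were 2 up and 18 down (41.7%, against 30.7%) and the median was −0.19. After quantile normalization of all 6 libraries, 0 were higher and 6 lower in limma (INCENP, CDC20, KIF20A, DLGAP5, PRC1 and ANLN, 17 of the 48 at an unadjusted p under 0.05), against 5.41% and 5.94% of all genes. ANLN, KIF20A and UBE2S passed in all 3 of the full fit, the fit without replicate 1 and the loess fit, and 10 genes passed in both of the latter. The fold changes followed GC content among the 48 genes (r = 0.534, rho = 0.464), less so after the correction (r = 0.485, rho = 0.404) and hardly without replicate 1 (r = 0.0658, rho = 0.0306). How far composition and replicate 1 account for the lower values was not tested beyond these fits.

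**Figure D3:**
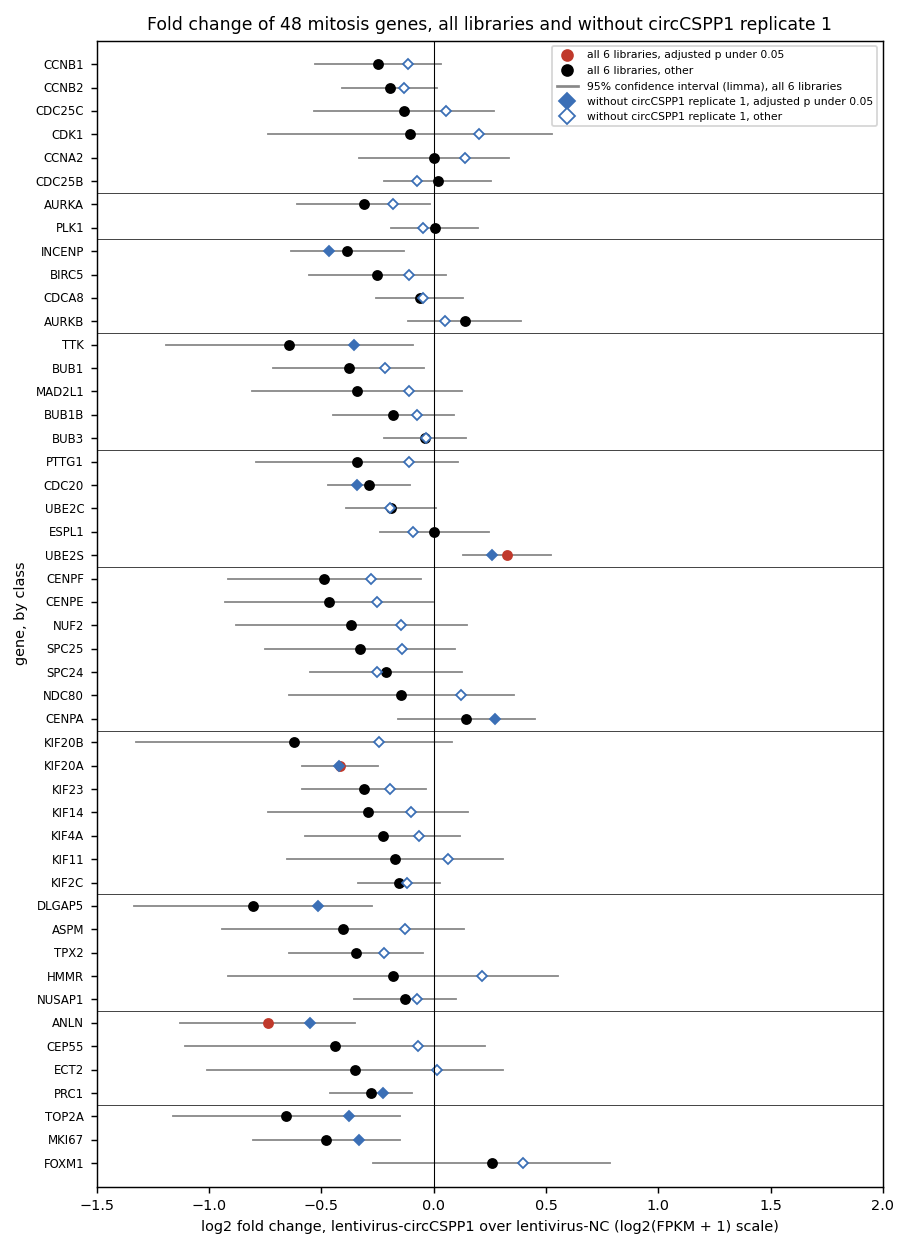
Log2 fold change of each of the 48 mitosis genes, lentivirus-circCSPP1 over lentivirus-NC on the log2(FPKM + 1) scale, by class; circles with 95% limma intervals use all 6 libraries, diamonds leave out lentivirus-circCSPP1 replicate 1. With all 6 libraries 40 genes lie left of 0 and 3 pass the test (red: KIF20A, ANLN, UBE2S); without replicate 1 most points move toward 0, 37 stay left of it and 11 pass (filled diamonds).

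The switch for mitotic entry showed no difference that passed the test. None of its 6 genes passed in limma, and none had an unadjusted p under 0.05, and their median log2 fold change was −0.12 (−0.0090 without replicate 1, −0.067 after the correction). CDK1, the kinase itself, was at 41.41, 33.15 and 34.13 FPKM in the lentivirus-NC libraries, against 21.42, 49.69 and 34.92 in replicates 1 to 3 of lentivirus-circCSPP1. Replicate 1 was thus the lowest and replicate 2 the highest of the 6. Its log2 fold change was −0.11 (95% interval −0.74 to 0.53, adjusted p = 0.84, limma), and 0.20 without replicate 1 (adjusted p = 0.39). CCNB1, the cyclin B1 partner of CDK1, had values of 125.28, 129.54 and 136.00 FPKM against 91.00, 121.84 and 118.31. These groups do not overlap, yet the log2 fold change of −0.25 (SE 0.12, limma adjusted p = 0.23) was −0.12 without replicate 1 (adjusted p = 0.16) and passed after the correction for GC content and length (−0.21, adjusted p = 0.031). CDC25B, a phosphatase that activates CDK1, had the highest log2 fold change of the class, 0.018, with an interval from −0.22 to 0.26 and overlapping groups (49.91 to 51.13 against 46.12 to 57.91 FPKM), and −0.073 without replicate 1.

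Neither of the mitotic kinases passed the test with all 6 libraries in limma (1 had an unadjusted p under 0.05). PLK1, which acts at centrosomes, kinetochores and the midzone, was at 119.23, 111.74 and 123.63 FPKM in lentivirus-NC and at 127.25, 114.97 and 113.72 FPKM in lentivirus-circCSPP1. The groups overlap, with replicate 1 the highest of the 6, and the log2 fold change of 0.0048 had an interval of −0.19 to 0.20 (SE 0.083), and was −0.046 without replicate 1. AURKA, the centrosomal Aurora kinase, measured 87.52, 91.48 and 100.01 FPKM against 62.28, 85.40 and 78.17 FPKM. All 3 of its lentivirus-circCSPP1 values were below the controls, with a log2 fold change of −0.31 (SE 0.13, limma adjusted p = 0.16), −0.18 without replicate 1 (adjusted p = 0.12) and −0.29 after the correction (adjusted p = 0.039).

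In the chromosomal passenger complex, which corrects attachments and guides cytokinesis, none of the 4 genes passed with all 6 libraries in limma (1 had an unadjusted p under 0.05), and their median log2 fold change was −0.16 (−0.079 without replicate 1, −0.14 after the correction). INCENP, the scaffold, was at 64.67, 65.27 and 58.01 FPKM in lentivirus-NC and at 53.54, 42.58 and 47.55 FPKM in lentivirus-circCSPP1. The groups do not overlap, and unlike most members its value in replicate 1 was the nearest to the controls; it also has the highest GC content of the 48. Its log2 fold change was −0.38 (SE 0.11, adjusted p = 0.061, limma), and it passed without replicate 1 (−0.47, adjusted p = 0.011) and after the correction (−0.34, adjusted p = 0.0079). AURKB, the kinase of the complex, was at 69.97, 79.89 and 81.99 FPKM against 95.90, 81.60 and 78.26, with a log2 fold change of 0.14 (−0.11 to 0.39), and 0.051 without replicate 1. Those groups overlap.

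All 5 spindle checkpoint genes had log2 fold changes below 0, with a median of −0.34 (−0.11 without replicate 1, −0.28 after the correction), and none passed with all 6 libraries in limma (2 had an unadjusted p under 0.05). TTK, the kinase known as MPS1 that starts the checkpoint signal, was at 18.77, 22.18 and 21.95 FPKM in lentivirus-NC and at 8.39, 16.42 and 15.88 FPKM in lentivirus-circCSPP1. Every lentivirus-circCSPP1 value was below the controls, replicate 1 far below. Its log2 fold change of −0.64 (SE 0.24, limma adjusted p = 0.12) became −0.35 without replicate 1 (adjusted p = 0.034). BUB3, which docks BUB1 at kinetochores, had the smallest difference: 82.01, 89.23 and 84.19 FPKM against 82.14, 86.36 and 80.12, a log2 fold change of −0.038 (−0.22 to 0.14) that was −0.032 without replicate 1 and turned to 0.018 after the correction.

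Anaphase and mitotic exit held the gene that rose with all 6 libraries. UBE2S extends ubiquitin chains on substrates of the anaphase-promoting complex. It measured 142.99, 148.25 and 144.68 FPKM in lentivirus-NC (145 ± 2.69, SD, n = 3) and 200.37, 178.74 and 169.53 FPKM in lentivirus-circCSPP1 (183 ± 15.8, n = 3), with every lentivirus-circCSPP1 library above every control. The log2 fold change was 0.33 (SE 0.084, adjusted p = 0.047, limma), 0.26 without replicate 1 (adjusted p = 0.014) and 0.35 after the correction (adjusted p = 0.0049). The call was lost without any 1 lentivirus-NC library (adjusted p = 0.15 to 0.18), without lentivirus-circCSPP1 replicate 2 (0.069) or 3 (0.083), and with no filter on low values (0.069), no moderation of the variance (0.085), median-ratio scaling (0.054) or quantile normalization (0.087). The gene (chr19:55399745-55407777, minus strand, GENCODE 29) shares 3506 bases with RPL28 on the other strand, whose FPKM was 285.01 to 297.26 in lentivirus-NC and 267.92 to 346.4 in lentivirus-circCSPP1; whether counting used the strand is not given in the sources used here. CDC20, an activator of the same complex and the target of the checkpoint, was at 148.30, 143.12 and 145.70 FPKM against 128.55, 113.39 and 116.30. Its groups do not overlap, with a log2 fold change of −0.29 (SE 0.078, adjusted p = 0.057, limma) that passed without replicate 1 (−0.34, adjusted p = 0.0055). PTTG1, the securin that restrains separase, had 85.62, 96.58 and 90.62 FPKM against 51.41, 90.50 and 78.33. Replicate 2 lay among the controls, and the log2 fold change was −0.34 (SE 0.19, limma adjusted p = 0.29) and −0.11 without replicate 1 (adjusted p = 0.37).

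Of the 7 centromere and outer kinetochore genes, 6 had log2 fold changes below 0 (median −0.33, −0.15 without replicate 1, −0.26 after the correction), and 0 passed with all 6 libraries in limma (2 at an unadjusted p under 0.05). CENPF, a large microtubule-binding protein of the outer kinetochore, was at 40.40, 47.51 and 42.56 FPKM in lentivirus-NC and at 22.75, 38.34 and 33.04 FPKM in lentivirus-circCSPP1. All 3 lentivirus-circCSPP1 values were below the controls, and the log2 fold change of −0.49 (SE 0.18, limma adjusted p = 0.13) was −0.28 without replicate 1 (adjusted p = 0.079) and passed after the correction (−0.43, adjusted p = 0.016). CENPA, the histone variant that marks centromeres, was the exception, at 23.65, 22.73 and 23.61 FPKM against 21.50, 30.22 and 26.70. Replicate 1 was below the controls and the other two above, so the log2 fold change of 0.14 (SE 0.13, limma adjusted p = 0.52) became 0.27 without replicate 1, which passed (adjusted p = 0.041).

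The 7 kinesins, motors of the spindle and midzone, all had log2 fold changes below 0 (median −0.29, −0.12 without replicate 1, −0.23 after the correction), and 1 passed. KIF20A, the midzone motor that carries PLK1 and the passenger complex into anaphase, fell. It measured 111.32, 118.56 and 111.41 FPKM in lentivirus-NC (114 ± 4.15) and 85.63, 83.98 and 85.20 FPKM in lentivirus-circCSPP1 (84.9 ± 0.856). The 3 lentivirus-circCSPP1 values were nearly equal, and replicate 1 did not stand apart in this gene. The log2 fold change was −0.42 (SE 0.072, adjusted p = 0.014, limma), −0.42 without replicate 1 (adjusted p = 0.0044) and −0.39 after the correction (adjusted p = 0.0043), but the call was lost when any 1 lentivirus-NC library (adjusted p = 0.066 to 0.087) or lentivirus-circCSPP1 replicate 3 (0.064) was left out. KIF20A lies at chr5:138178719-138187715, where the ends of CDC23 and BRD8 overlap it by 68 and 268 bases. KIF20B, its relative, lay at the low end, at 5.82, 5.90 and 5.98 FPKM against 1.64, 5.39 and 4.33. Replicate 1 sets most of that difference, with a log2 fold change of −0.62 (−1.33 to 0.079) that was −0.24 without it (adjusted p = 0.13) and passed after the correction (−0.55, adjusted p = 0.025). KIF2C, which takes microtubules apart at centromeres, had the smallest difference of the kinesins, at 61.24 to 63.44 FPKM against 53.21 to 57.61 (log2 fold change −0.15, limma adjusted p = 0.25, and −0.12 without replicate 1).

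All 5 spindle assembly factors had log2 fold changes below 0 (median −0.35, −0.13 without replicate 1, −0.32 after the correction), and 0 passed with all 6 libraries in limma (2 at an unadjusted p under 0.05). DLGAP5, known as HURP, stabilises kinetochore fibres and had the lowest log2 fold change of the 48. It was at 52.51, 55.63 and 55.01 FPKM in lentivirus-NC (54.4 ± 1.65) and at 20.32, 40.17 and 35.38 FPKM in lentivirus-circCSPP1 (32 ± 10.4). The groups were well apart with and without replicate 1. Its log2 fold change was −0.80 (SE 0.23, adjusted p = 0.063, limma), and it passed without replicate 1 (−0.52, adjusted p = 0.0060) and after the correction (−0.74, adjusted p = 0.0031). NUSAP1, which bundles microtubules near chromatin, differed least, with 47.72, 46.70 and 49.79 FPKM against 40.73, 49.07 and 42.31 (log2 fold change −0.13, limma adjusted p = 0.44, and −0.075 without replicate 1).

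Among the 4 cytokinesis genes, all with log2 fold changes below 0 (median −0.40, −0.15 without replicate 1, −0.34 after the correction), ANLN fell. It encodes anillin, the scaffold of the contractile ring, and was at 100.47, 116.06 and 121.27 FPKM in lentivirus-NC (113 ± 10.8) and at 51.36, 79.73 and 72.84 FPKM in lentivirus-circCSPP1 (68.0 ± 14.8). No library of one group reached the other. The log2 fold change was −0.74 (SE 0.17, adjusted p = 0.031, limma), −0.55 without replicate 1 (adjusted p = 0.0096) and −0.68 after the correction (adjusted p = 0.0020). The ANLN call was lost without any 1 lentivirus-NC library (adjusted p = 0.078 to 0.12) or lentivirus-circCSPP1 replicate 3 (0.077). It was also lost with no filter on low values (0.10) and with no moderation of the variance (0.13). ANLN lies at chr7:36389806-36453791 on the plus strand and shares 320 bases with KIAA0895. PRC1, which crosslinks the microtubules of the midzone, was at 148.59, 145.34 and 151.52 FPKM against 113.52, 128.97 and 124.94. Those groups are apart too, and the log2 fold change of −0.28 (SE 0.078, adjusted p = 0.062, limma) passed without replicate 1 (−0.22, adjusted p = 0.019). ECT2 and CEP55, which act in furrow formation and final separation, were by far the lowest in replicate 1, at 39.17 and 36.01 FPKM. Replicate 3 was slightly below the controls too, at 79.19 FPKM against 82.27 to 87.08 for ECT2 and 72.69 against 80.85 to 85.48 for CEP55. Replicate 2 was above them, at 91.83 and 86.20 FPKM.

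The last class holds the marks of dividing cells, MKI67 and TOP2A, and the transcription factor FOXM1. None of these 3 passed with all 6 libraries in limma (2 had an unadjusted p under 0.05). Their median log2 fold change was −0.48 (−0.33 without replicate 1, −0.42 after the correction). MKI67, the gene of the Ki-67 antigen, was at 52.69, 54.50 and 54.78 FPKM in lentivirus-NC and at 31.30, 46.54 and 39.02 FPKM in lentivirus-circCSPP1. TOP2A, the topoisomerase that untangles sister chromatids, was at 251.75, 258.75 and 253.89 FPKM against 109.26, 206.94 and 185.27. In both genes the controls lay close together and all 3 lentivirus-circCSPP1 libraries below them. MKI67 had a log2 fold change of −0.48 (SE 0.14, adjusted p = 0.070, limma; −0.33 and 0.031 without replicate 1). TOP2A had one of −0.66 (SE 0.22, adjusted p = 0.095, limma; −0.38 and 0.0077 without replicate 1). FOXM1, the transcription factor that activates many of these genes, was at 25.89, 26.89 and 28.15 FPKM against 26.47, 26.36 and 48.73. A single library, lentivirus-circCSPP1 replicate 3, was high, so the log2 fold change of 0.26 (−0.27 to 0.79) became −0.028 without it and 0.40 without replicate 1. Across the 48 genes, 13 overlap another coding gene in GENCODE, FOXM1 among them, which shares 898 bases with RHNO1 on the other strand (16.13 to 29.34 FPKM over the 6 libraries).

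**Figure D4:**
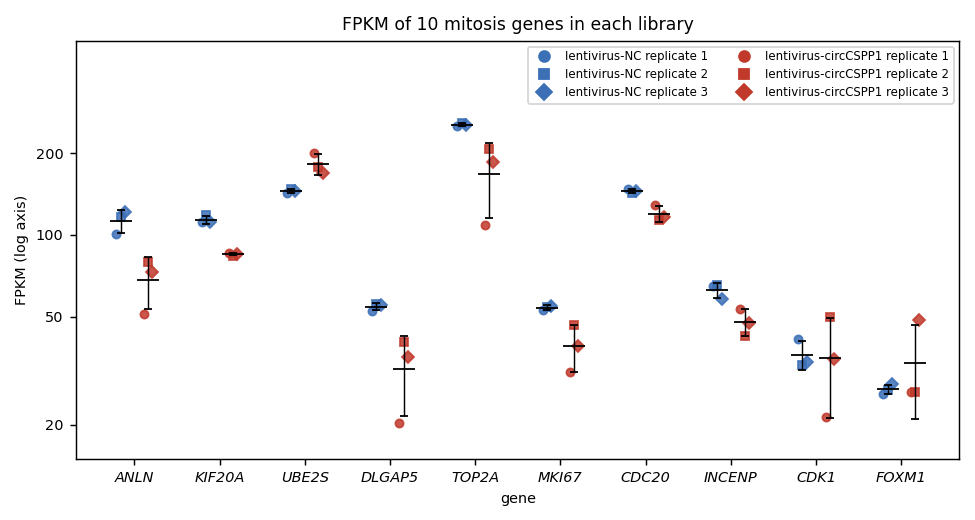
FPKM on a log axis of 10 mitosis genes in each of the 6 libraries, with the mean and SD of each group of 3. ANLN, KIF20A, DLGAP5, TOP2A, MKI67, CDC20 and INCENP are lower in every lentivirus-circCSPP1 library and UBE2S higher, while CDK1 is spread from 21.42 to 49.69 FPKM within lentivirus-circCSPP1 and FOXM1 is high in replicate 3 alone (48.73 FPKM).

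The CHR divided the 41 genes with a promoter window unevenly. The median log2 fold change was −0.30 in the 34 genes that hold either form (31 below 0), and 0.0023 in the 7 that hold none (BUB1, CCNA2, CDC25C, AURKB, SPC24, UBE2S and CDC25B), of which 3 were below 0. Without replicate 1 the medians were −0.12 and 0.051. Of the 7 that hold none, BUB1, CCNA2 and CDC25C had 42.5%, 42.2% and 46.5% GC. SPC24, AURKB, UBE2S and CDC25B had 53.4%, 55.6%, 55.7% and 59.3%, against a median of 43.2% over the 48. The part of GC content in this division was not tested. AURKA, BIRC5, BUB3, TTK, UBE2C, TPX2 and FOXM1 had no window and stand on neither side. With 7 genes on one side, this is a description of these genes and was not tested.

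Other cell division genes, 139 in 7 lists that share no member with the 48, showed a median of −0.089 on the log2 scale, and 0 genes were higher and 6 lower at an adjusted p under 0.05 in limma (4.3%, against 11.4% of all genes; 32 at an unadjusted p under 0.05). Without replicate 1 their median was 0.019 and 11 passed higher and 15 lower (18.7%, against 28.5% of all genes). The share lower was 10.8%, against 15.3% of all genes. After the correction the median was −0.041, with 9 higher and 27 lower (25.9%, against 28.5%). The share lower was then 19.4%, against 13.8% of all genes. The nearest list in function, 18 further spindle and cytokinesis genes, held 4 of the 6 (22.2% of the list, against 6.66% of all genes lower). SPAG5, which encodes astrin, a partner of separase and of spindle microtubules, was at 249.29, 258.39 and 261.13 FPKM in lentivirus-NC and at 165.46, 171.87 and 170.2 FPKM in lentivirus-circCSPP1. As with KIF20A, the lentivirus-circCSPP1 libraries were close to one another, and the log2 fold change was −0.60 (SE 0.066, adjusted p = 0.0037, limma). TROAP, which is needed for bipolar spindles, went from 55.48 to 57.26 FPKM in lentivirus-NC to 38.39 to 41.74 (log2 fold change −0.47, adjusted p = 0.013), and CIT, the citron kinase of cytokinesis, from 32.1 to 33.98 FPKM to 17.7 to 23.65 (−0.64, adjusted p = 0.018). TACC3, which stabilises kinetochore fibres, was the other (−0.38, adjusted p = 0.019). That list had 17 of 18 genes below 0 and a median of −0.27. Without replicate 1 it had 14 below 0, a median of −0.16 and 7 lower calls (38.9%, against 15.3% of all genes), these 4 among them. After the correction it had a median of −0.23 and 8 lower calls (44.4%, against 13.8% of all genes), again with these 4.

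Among 29 further centromere and kinetochore genes, 23 were below 0 (median −0.14) and CENPI, of the inner kinetochore, fell, from 17.41 to 18.36 FPKM to 7.0 to 11.46 (log2 fold change −0.82, adjusted p = 0.030, limma; −0.60 and 0.0030 without replicate 1). The median of that list was −0.0056 without replicate 1, with 1 higher and 3 lower (13.8%, against 28.5% of all genes). After the correction it was −0.11, with 0 higher and 5 lower (17.2%, against 13.8% of all genes lower). Cohesin and condensin (20 genes, median −0.20, 12 below 0) and the regulators of mitotic entry (16 genes, median −0.042, 10 below 0) had no call in limma (4 and 2 at an unadjusted p under 0.05). Without replicate 1 the medians were −0.022 and 0.052, with 1 higher and 2 lower in the former and 1 higher in the latter. These are 15% and 6.2% of the lists, against 28.5% of all genes. After the correction 7 of the 20 were lower (35%, against 13.8% of all genes). Of the 16, 1 was higher and 1 lower (12.5%, against 28.5% of all genes). Of 22 replication genes, 15 were below 0 (median −0.12) and TYMS, the thymidylate synthase, fell (−0.41, adjusted p = 0.020, limma). Without replicate 1 the median of these 22 was −0.047, with 1 higher and 2 lower (13.6%, against 28.5% of all genes). After the correction it was −0.078, with 4 higher and 4 lower (36.4%, against 28.5% of all genes). The 18 genes of the MuvB, E2F and RB family, whose binding at the promoters above was not measured, had a median of 0.10 with 12 above 0. The 16 subunits and activators of the anaphase-promoting complex had one of 0.044 with 10 above 0. Each list had no call in limma (2 and 2 at an unadjusted p under 0.05). Without replicate 1 the medians were 0.20 and 0.12. LIN37, E2F3, E2F4, E2F7 and TFDP2 then passed higher in the former (27.8%, against 13.2% of all genes higher). In the latter list 2 passed higher and 1 lower (18.8%, against 28.5% of all genes). After the correction each had 2 higher and 1 lower (16.7% and 18.8%, against 28.5% of all genes). The E2F4 gene, a DNA-binding partner of MuvB in resting cells, came nearest, at 127.74, 116.83 and 121.9 FPKM against 185.46, 147.24 and 149.62 (log2 fold change 0.39, adjusted p = 0.057; 0.28 and 0.016 without replicate 1).

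**Figure D5:**
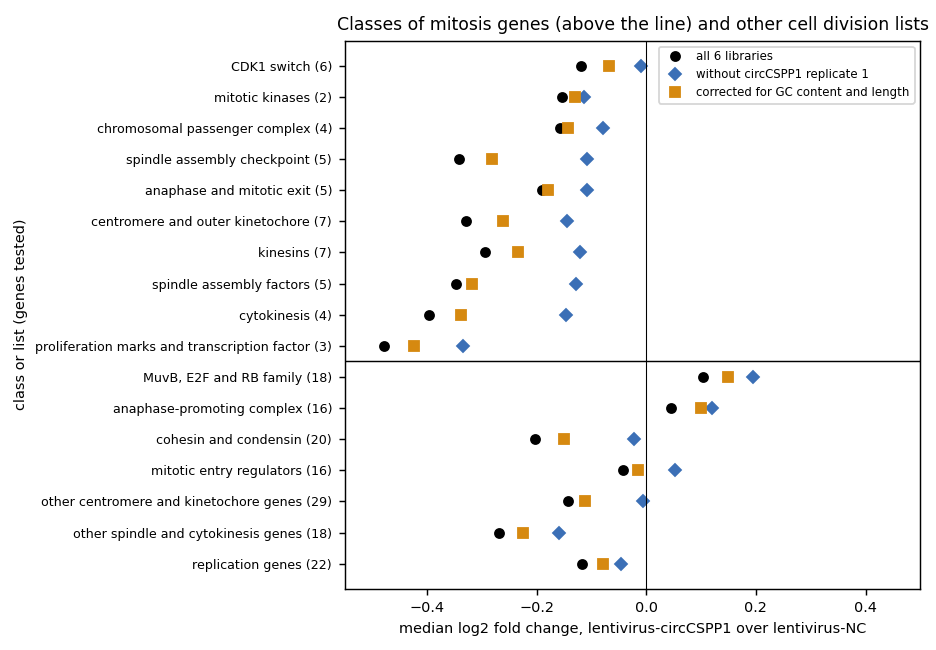
Median log2 fold change of each of the 10 classes of mitosis genes (above the line) and of 7 lists of other cell division genes (below it), with the number of genes tested, for all 6 libraries (circles), without lentivirus-circCSPP1 replicate 1 (diamonds) and after the correction for GC content and length (squares). All 10 classes have medians below 0 in each of the 3 fits, from −0.12 (CDK1 switch) to −0.48 (proliferation marks and FOXM1) with all 6 libraries, while the MuvB, E2F and RB family (0.10) and the anaphase-promoting complex (0.044) lie above it.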

How the data were processed

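RNA-seq of 6 DU145 libraries, 3 per group, was analysed; groups and replicate numbers come from the sample labels. The authors deposited 1 table of FPKM values from polyadenylated RNA sequenced in paired-end mode, rounded to 2 decimals. The submitters' notes name build hg38; aligner, quantifier and annotation are not given in the sources used here. No count test was applied, since FPKM is a normalised unit. On log2(FPKM + 1), 12322 genes averaging 1 FPKM or more were tested (7405 were not) by limma 3.58.1 under R 4.3.3 (trended eBayes, two-sided, without covariates), Benjamini-Hochberg adjusted over all of them. Fold changes on this scale understate those of low genes. In simulated data 82% of 100 genes with a log2 change of 1 and 98% of 100 with 2 were recovered, and 0.0578% of 12107 unchanged genes were called. The changed genes were drawn from better expressed ones. Noise was drawn for each gene on its own, without the shift of replicate 1 with GC content. The mitosis genes changed by less (−0.80 to 0.33 in the full fit), and recovery of such changes was not tested.

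Depth came from the FPKM steps of single-transcript genes under 800 nt (tolerance 0.15 of a step). GC content, length and gene coordinates came from GENCODE 29 on GRCh38; 17 tested genes without a transcript there left the loess fits (span 0.5). Members and gene lists were chosen with earlier results of these data known. Members given in full were CDK1, CCNB1, PLK1, AURKA, AURKB, FOXM1, MKI67, TOP2A, those that passed, and the highest and lowest of each class; from other lists, up to 3 with the smallest adjusted p. CDC20, ECT2, CEP55, HMMR, TACC3, E2F3, E2F7 and TFDP2 were named after their values were seen. Alternatives were other pseudocounts, filters and scalings, other variance models, the replicate block, the loess correction and leaving out each library. Figures used matplotlib 3.10.9.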

Additional observations from a re-analysis of the deposited data

How the results depend on the processing

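The median log2 fold change of the 48 genes stayed below 0 in every alternative, from −0.37 (without lentivirus-circCSPP1 replicate 2) to −0.11 (without replicate 1), while the number called depended on the fit. In limma the genes called lower (2 in the full fit) were 1 with no filter on low values, 6 after quantile normalization, 1 with no moderation of the variance, 18 after the loess correction for GC content and length, 17 with that correction and the replicate block, and 0 to 18 when a library was left out: 9 without lentivirus-circCSPP1 replicate 1, 18 without it and with the correction, 5 without replicate 2, and 0 without replicate 3 or without any 1 lentivirus-NC library (12, 13, 9 and 9 of the 48 then had an unadjusted p under 0.05). Genes called higher (1) were 0 with no filter, median-ratio scaling, quantile normalization, no moderation or the replicate block, and 0 to 2 when a library was left out. These counts are to be read beside all genes called, 1399 in the full fit. That total was 1161 with no filter, 1318 with median-ratio scaling, 1399 after quantile normalization and 834 with no moderation. It was 923 with the replicate block, 3512 after the correction and 2714 with both. Without lentivirus-NC replicates 1, 2 and 3 it was 300, 317 and 407. Without lentivirus-circCSPP1 replicates 1, 2 and 3 it was 3512, 1160 and 450, and without replicate 1 and with the correction 3775. The cause was not tested.

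Among the members given in full, signs turned in 5: BUB3 was at 0.0039 with median-ratio scaling and at 0.018 after the correction, with or without the block; CDC25B at −0.0076 after quantile normalization and −0.073 to 0.088 with a library left out, below 0 only without lentivirus-circCSPP1 replicate 1; CDK1 at −0.38 to 0.20, above 0 without that library (0.20, and 0.084 with the correction as well); FOXM1 at −0.028 to 0.40, below 0 only without lentivirus-circCSPP1 replicate 3; and PLK1 at −0.016 after quantile normalization, and at −0.046 to 0.038 with a library left out, below 0 without lentivirus-NC replicate 2 (−0.035) or lentivirus-circCSPP1 replicate 1 (−0.046). Of the other members, CDC25C, ESPL1, NDC80, KIF11, HMMR and ECT2 changed sign without lentivirus-circCSPP1 replicate 1 (HMMR from −0.18 to 0.21, ECT2 from −0.35 to 0.016). UBE2S kept its call in 9 of 19 alternatives (adjusted p 0.0049 to 0.18), ANLN in 13 (0.0020 to 0.13) and KIF20A in 15 (0.0035 to 0.087). The series' design text speaks of pairs without saying what they share. Same-numbered replicates deviated together only weakly (r = 0.0734, 0.00653 and 0.0572 for numbers 1, 2 and 3), and not every library correlated best with its own number, so the replicate block was not used in the report; with it the calls among the 48 were KIF20A, DLGAP5 and ANLN, all lower, and UBE2S was at an adjusted p of 0.094 (3 of the 48, against 4.54% of all genes lower and 7.49% in either direction). Depth limits the precision of the least covered genes, at about 272 fragments in the lowest value.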
